A study of Homo sapiens with 33 samples.

Results

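The 34 genes described here are the glycolytic enzymes, glucose and lactate transporters, regulators of glycolytic flux and hypoxia-induced genes, chosen by name from the 26475 gene symbols of a count table. The table holds RNA-seq counts from cells of the human embryonic kidney line HEK293T that received a base editor or a control. A base editor is a Cas9 nickase (nCas9) carrying a deaminase that rewrites adenines or cytosines near the site a guide RNA selects. The series compared a dual editor, SpACE, with editors that rewrite adenine only (ABEmax and miniABEmax-V82G) or cytosine only (Target-AID), and with 2 negative controls. ABEmax, miniABEmax-V82G, Target-AID, SpACE and nCas9 were each given with either of 2 guides, for HEKsite2 or for the RNF2 gene, while GFP had no guide, which makes 11 groups of 3 libraries. All groups were transiently transfected with 50 µg of plasmid and sorted for GFP 36 to 40 h later, so every library comes from cells that took up plasmid. The labels also state that the line was passaged at about 80% confluency so that it did not run short of oxygen, and no group was placed in low oxygen according to them. Nothing in the labels ties the 3 replicates to cultures of their own, so p-values reflect library-to-library spread, which may be technical.

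Glycolysis splits glucose into pyruvate, and lactate dehydrogenase turns pyruvate into lactate, which monocarboxylate transporters carry out of the cell. In low oxygen the prolyl hydroxylases of the EGLN family stop marking HIF-alpha proteins for destruction by the VHL ubiquitin ligase, and the HIF dimer of an alpha subunit with ARNT then switches on most glycolytic enzymes, glucose transporters and a set of further genes. HIF binds the short core ACGTG, or its variant GCGTG, in DNA. MYC, another activator of glycolytic genes, binds the E-box CACGTG, which contains ACGTG on both strands.

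RefSeq promoter windows, from 250 bases before to 50 bases after a gene's start on GRCh38.p14, were at hand for 31 of the 34 genes, in 58 windows. The core ACGTG, searched on both strands, occurred in 23 of the 58 windows (39.7%), against 7518 of all 35116 windows (21.4%). The variant GCGTG occurred in 23 windows as well (39.7%), but against 12832 of all windows (36.5%), a near-equal share. The E-box CACGTG, which always also counts as ACGTG, occurred in 8 (13.8%) against 7.26% of all windows. Counted by gene, 19 of the 31 (61.3%) had ACGTG in at least 1 window, against 24.9% of 27305 genes. Members had more windows per gene (58 for 31 genes) than all genes (35116 for 27305), which gives more places for a match. The windows below are those of the members given in full in what follows that hold ACGTG. They are shown 5′ to 3′ on the gene's strand, with ACGTG or its reverse complement CACGT in capitals, because these genes moved in both directions. They lie at chr17:28576846-28577145 (minus strand, ALDOC), chr19:34364742-34365041 (plus, GPI), chr12:6914330-6914629 (plus, ENO2), chr11:18394313-18394612 (plus, LDHA), chr10:6202682-6202981 (plus, PFKFB3) and chr10:73096817-73097116 (minus, P4HA1).
ALDOC: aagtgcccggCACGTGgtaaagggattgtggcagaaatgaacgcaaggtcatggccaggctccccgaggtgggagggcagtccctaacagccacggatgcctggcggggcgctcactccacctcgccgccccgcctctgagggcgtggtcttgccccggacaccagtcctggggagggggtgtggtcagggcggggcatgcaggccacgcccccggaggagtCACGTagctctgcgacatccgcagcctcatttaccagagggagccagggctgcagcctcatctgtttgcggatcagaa
GPI: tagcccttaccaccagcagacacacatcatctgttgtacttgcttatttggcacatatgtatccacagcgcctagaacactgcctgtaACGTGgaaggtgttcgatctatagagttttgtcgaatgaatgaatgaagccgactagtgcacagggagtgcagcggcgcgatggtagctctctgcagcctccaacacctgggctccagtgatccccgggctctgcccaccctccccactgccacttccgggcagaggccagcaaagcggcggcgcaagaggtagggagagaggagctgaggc
ENO2: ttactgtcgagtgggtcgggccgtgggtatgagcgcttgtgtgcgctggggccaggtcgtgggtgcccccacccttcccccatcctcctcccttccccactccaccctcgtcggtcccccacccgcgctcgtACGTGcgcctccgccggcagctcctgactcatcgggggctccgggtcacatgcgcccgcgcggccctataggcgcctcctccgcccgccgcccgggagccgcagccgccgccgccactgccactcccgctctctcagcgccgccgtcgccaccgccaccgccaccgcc
LDHA: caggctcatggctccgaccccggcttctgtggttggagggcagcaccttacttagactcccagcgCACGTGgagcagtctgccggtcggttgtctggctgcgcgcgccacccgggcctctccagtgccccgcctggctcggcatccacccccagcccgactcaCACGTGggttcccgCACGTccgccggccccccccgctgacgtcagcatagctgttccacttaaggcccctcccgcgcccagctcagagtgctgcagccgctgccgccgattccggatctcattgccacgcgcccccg
PFKFB3: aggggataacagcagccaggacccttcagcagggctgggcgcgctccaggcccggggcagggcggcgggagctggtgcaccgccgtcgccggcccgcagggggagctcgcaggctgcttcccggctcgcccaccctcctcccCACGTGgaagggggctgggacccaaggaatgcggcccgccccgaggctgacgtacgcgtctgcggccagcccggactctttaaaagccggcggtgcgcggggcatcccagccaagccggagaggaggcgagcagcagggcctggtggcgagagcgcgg
P4HA1: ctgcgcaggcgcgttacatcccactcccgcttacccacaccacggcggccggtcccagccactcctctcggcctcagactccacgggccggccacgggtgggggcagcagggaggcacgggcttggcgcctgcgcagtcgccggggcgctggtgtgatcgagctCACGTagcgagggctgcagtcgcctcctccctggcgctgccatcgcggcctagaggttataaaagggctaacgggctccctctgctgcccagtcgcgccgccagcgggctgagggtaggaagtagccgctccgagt
LDHA had 5 matches of ACGTG, made of 2 E-boxes and 1 single match, ALDOC had 3, and PFKFB3 had 2 within 1 E-box. GPI, ENO2 and P4HA1 had 1 each, outside an E-box. LDHA and PFKFB3 each had a further window, not shown, with 0 matches. A match describes the letters of the window and is not evidence of binding.

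Libraries held 6790209 to 11200406 counts, and 32 of the 34 members passed the filter on low counts and were tested among 14613 genes. Markers of the line were present (VIM at 240 to 403 CPM, counts per library size scaled by TMM, CDH2 at 129 to 181), except that PAX2 was at 0 to 0.776 CPM. Markers of liver, blood and endothelium (ALB, AFP, PTPRC, CD3E, PECAM1 and CDH5) summed to 0 to 1.54 CPM per library. RNF2, the gene 1 guide targets, was at 36.6 ± 4.76 CPM in nCas9 with the RNF2 guide and 64.1 ± 3.64 CPM with the HEKsite2 guide, against 78.9 ± 7.34 CPM in GFP (SD, n = 3 each). The third Target-AID library of each guide stood apart from the other 2 (chi-square per degree of freedom 9.92 to 20.7, against at most 5.02 for any other replicate pair). Counts of calls for Target-AID against nCas9 and SpACE, and some changes of NDRG1 and P4HA2, are therefore also given without it. Other levels and changes in Target-AID include it.

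Levels per kilobase of merged exon (CPM per kb, GENCODE 29) spanned a wide range. In GFP cells GAPDH, which oxidises glyceraldehyde 3-phosphate, stood at 838 CPM per kb, LDHB at 531.0, the enolase ENO1 at 341 and the triose isomerase TPI1 at 333. Among the HIF-induced members outside glycolysis, the collagen prolyl hydroxylase P4HA1 was the highest at 26.3 CPM per kb and CA9, a carbonic anhydrase that is a standard hypoxia marker, the lowest at 0.0188. CA9 had 0 to 4 counts per group and 18 over all 33 libraries. Both SpACE groups had 0 counts of CA9, which allows up to 0.112 CPM with HEKsite2 and 0.111 CPM with RNF2 (3 counts over the group, counting error only). ANKRD37, another hypoxia marker, had 7 to 25 counts per group. Neither was tested. The lactate exporter gene SLC16A3 was tested but had only 6 to 26 counts per group.

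Each editor was first compared with nCas9 carrying the same guide. The columns of the SpACE libraries carry the tag UGI, which the labels do not mention, so whatever it stands for cannot be told apart from the deaminases of SpACE. Most glycolytic enzyme genes fell or were lower with an editor, while a few HIF-induced members rose. The edgeR quasi-likelihood test with Benjamini-Hochberg adjustment over all 14613 genes was used throughout, and a gene with adjusted p under 0.05 is called. Of all tested genes, 15.9% were called with ABEmax and HEKsite2 (8.31% higher and 7.55% lower), and of the 32 members 1 rose and 13 fell. With miniABEmax-V82G and HEKsite2, 4 members rose and 5 fell, against 10.3% of all genes (5.02% higher and 5.32% lower). With Target-AID and HEKsite2, 7 rose and 15 fell, against 40.6% (21.5% higher and 19.1% lower). With SpACE and HEKsite2, 6 rose and 11 fell, against 21% (10.7% higher and 10.2% lower). Under the RNF2 guide, 2 members rose and 7 fell with ABEmax, against 11.2% of all genes (6.51% higher and 4.66% lower). With miniABEmax-V82G and RNF2, 5 rose and 8 fell, against 12.6% (6.88% higher and 5.72% lower). With Target-AID and RNF2, 8 rose and 13 fell, against 35.2% (19.4% higher and 15.8% lower). With SpACE and RNF2, 6 rose and 2 fell, against 14.7% (8.03% higher and 6.68% lower). The median log2 fold change of the 32 members was -0.16, -0.05, -0.21 and -0.14 with HEKsite2 and -0.16, -0.07, -0.12 and -0.02 with RNF2, in the order ABEmax, miniABEmax-V82G, Target-AID and SpACE, and that of all tested genes was 0.00 in each. In these bulk libraries, fewer cells of a type and less RNA per cell cannot be told apart.

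**Figure D1:**
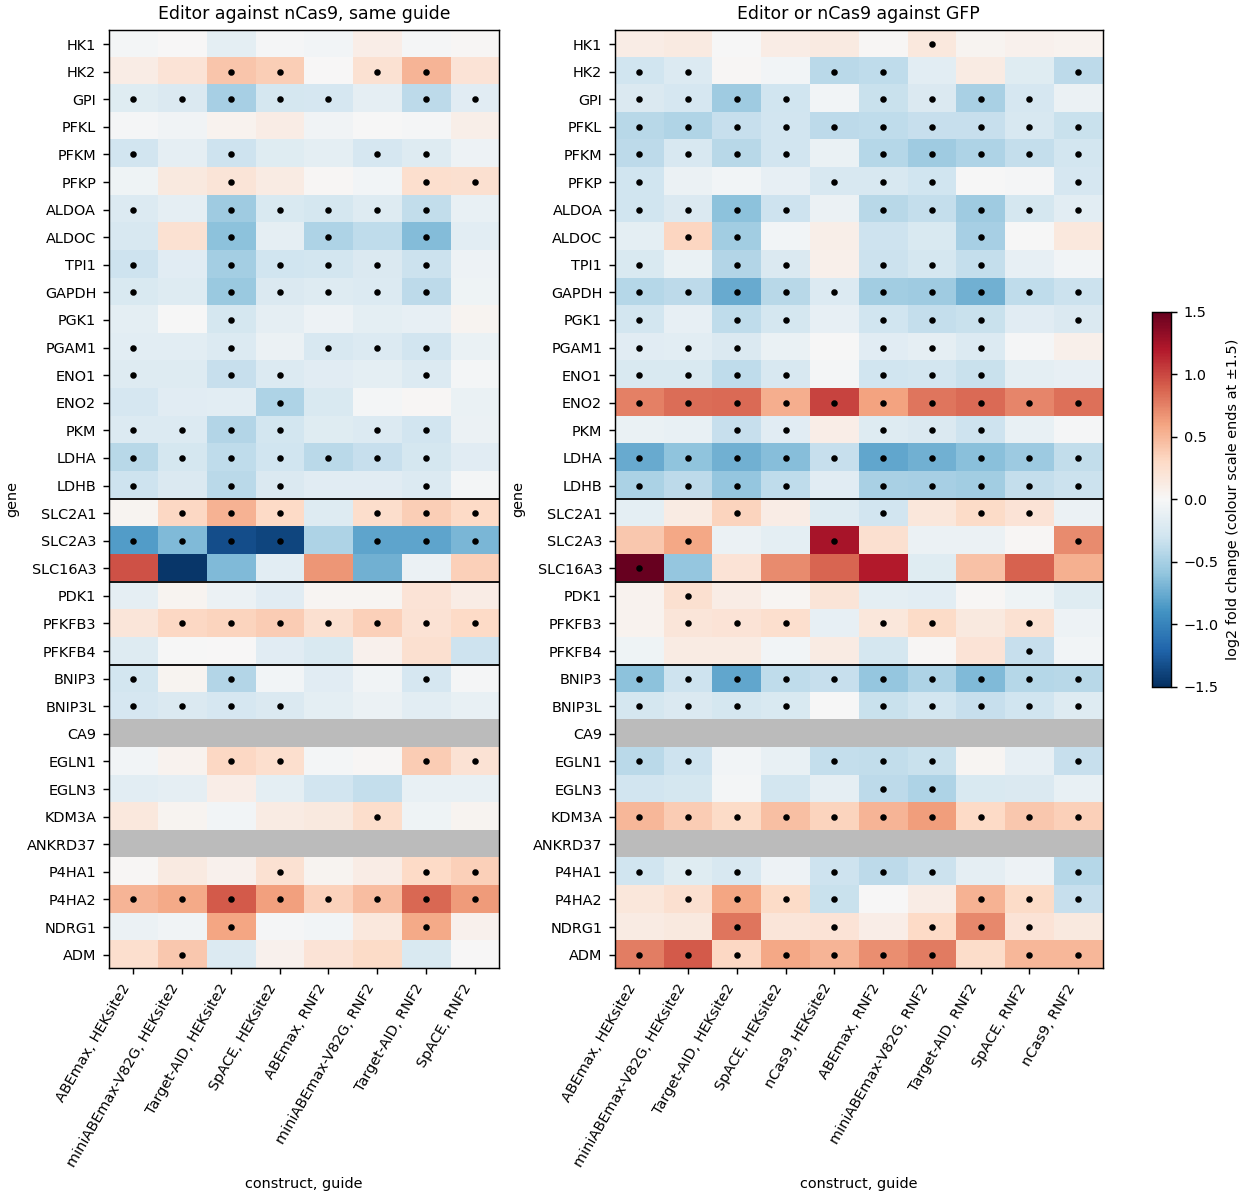
Log2 fold change of the 34 genes (down the page, by role: enzymes, transporters, flux regulators, HIF-induced genes) in each editor against nCas9 with the same guide (left) and in each editor and nCas9 against GFP (right). Colour gives the log2 fold change with its scale ending at ±1.5, black dots mark genes with adjusted p under 0.05, and grey cells are the 2 genes that were not tested. P4HA2 is red with a dot in all 8 columns on the left, and LDHA is blue with a dot in all 10 columns on the right.

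Over the 8 comparisons with nCas9, 26 of the 32 tested members (81.2%) were called at least once, against 59.7% of all 14613 tested genes. Of the 32, 10 were called only as rises (31.2%, against 30.7% of all genes), 16 only as falls (50%, against 27.4%), and 0 in both directions (1.58% of all genes). In all 8, 1 member rose (3.12%, against 1.16% of all genes), and 3 members fell in 7 or more (9.38%, against 1.77%). HK1, PFKL, SLC16A3, PDK1, PFKFB4 and EGLN3 were called in none. The 8 comparisons share their nCas9 libraries within a guide, so they are not independent of each other.

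Of the 17 enzymes of glycolysis and lactate formation, 10 fell with ABEmax, 3 with miniABEmax-V82G, 12 with Target-AID and 9 with SpACE under the HEKsite2 guide, while 0, 0, 2 and 1 rose. Of all tested genes, 7.55%, 5.32%, 19.1% and 10.2% were called lower and 8.31%, 5.02%, 21.5% and 10.7% higher in these comparisons. Under the RNF2 guide 7, 7, 11 and 1 enzymes fell, and 0, 1, 2 and 1 rose. There, 4.66%, 5.72%, 15.8% and 6.68% of all tested genes were called lower and 6.51%, 6.88%, 19.4% and 8.03% higher. With miniABEmax-V82G and HEKsite2, 6 fell with DESeq2, 6 with RLE scaling and 7 with a replicate block. In a fit to the compared groups only, 7 fell with Target-AID and 11 with miniABEmax-V82G under RNF2. Shares of all genes called under these settings are not given. The median log2 fold change of the 17 was lowest in Target-AID with HEKsite2, at -0.35, and nearest to 0 in SpACE with RNF2, at -0.07. Their summed level was 9393 ± 446 CPM in ABEmax, 9775 ± 417 in miniABEmax-V82G, 8230.25 ± 279 in Target-AID and 9467 ± 258 in SpACE, against 11037 ± 764 in nCas9, all with HEKsite2 (SD, n = 3 each). With RNF2 it was 8955 ± 308, 9058 ± 98.3, 8531 ± 847 and 9866 ± 582 CPM in the same order of editors, against 10298 ± 287 in nCas9.

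The rule that named members picked GPI, LDHA, ALDOC and ENO2 among the enzymes. GPI, which converts glucose 6-phosphate into fructose 6-phosphate and whose window above holds a single core, was at 371, 339.8 and 354 CPM in the Target-AID libraries and at 521, 503 and 480.5 CPM in the nCas9 libraries with HEKsite2. Every Target-AID library was below every nCas9 library, and the log2 fold change was -0.50 ± 0.0533 (SE, adjusted p = 7.25e-10). GPI fell in 7 of the 8 comparisons, and in the remaining one, miniABEmax-V82G with RNF2, it was also below nCas9 in every library but missed the threshold at -0.13 ± 0.0531 (adjusted p = 0.102). The GPI call in ABEmax with HEKsite2 ended without ABEmax replicate 2 (adjusted p = 0.15), without nCas9 replicate 1 (0.0924) and in the compared groups only (0.0533). Its call in SpACE with RNF2 ended in every leave-out except that of SpACE replicate 1 (up to 0.107, without SpACE replicate 2). That call also ended with no filter on low counts (0.168).

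LDHA, the lactate dehydrogenase subunit that favours lactate formation, also fell in 7 of 8. With ABEmax and HEKsite2 it was at 517, 513 and 528 CPM, against 736, 703 and 641 CPM in nCas9. The groups did not overlap, and the change was -0.42 ± 0.0707 (adjusted p = 4.47e-05). With ABEmax and RNF2 it was at 533, 521.5 and 484 CPM, against 675, 722 and 642 CPM in nCas9, again without overlap (-0.41 ± 0.0706, adjusted p = 0.000105). The comparison of SpACE with RNF2 missed the threshold at -0.17 ± 0.0702 (adjusted p = 0.0902), although its libraries at 613, 582 and 613 CPM all lay below those of nCas9. The call in miniABEmax-V82G with HEKsite2 ended without its replicate 3 (adjusted p = 0.0798) and without nCas9 replicate 1 (adjusted p = 0.0774). LDHB, the subunit that favours the reverse reaction, fell in 4 of 8, and LDHA made up 31.3% ± 0.945 of the LDHA and LDHB counts in ABEmax with HEKsite2 against 33% ± 1.14 in nCas9, a difference about as large as the spread between libraries (SD, n = 3 each). With RNF2 the share was 31.2% ± 0.342 in ABEmax against 34.9% ± 0.955 in nCas9, a difference larger than that spread.

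ALDOC, an aldolase isoform first known from brain, fell in 3 of 8. In Target-AID with HEKsite2 it was at 5.35, 6.50 and 4.96 CPM, against 8.125, 8.41 and 9.29 CPM in nCas9 (-0.61 ± 0.147, adjusted p = 0.000876). With RNF2 it was at 5.22, 6.98 and 4.94 CPM in Target-AID against 9.74, 8.86 and 8.33 CPM in nCas9 (-0.65 ± 0.145, adjusted p = 0.000461). In both guides all Target-AID libraries were below all nCas9 libraries. ENO2, the enolase isoform of neurons, was called once, with SpACE and HEKsite2, at 12.9, 13.6 and 15.7 CPM against 18.9, 19.5 and 19.8 CPM in nCas9 (-0.46 ± 0.134, adjusted p = 0.0105). That call ended without SpACE replicate 1 (adjusted p = 0.0567). The third ALDOC fall, in ABEmax with RNF2 (-0.46 ± 0.145, adjusted p = 0.0322), ended in 4 of the 6 leave-outs, with adjusted p up to 0.132 without nCas9 replicate 1, and also with DESeq2 (0.0893), with no filter (0.0746) and in the compared groups only (0.0536). Exons of ALDOC overlap those of AC005726.4 on the other strand over 296 bases.

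Among the other enzymes, ALDOA, TPI1, GAPDH and PKM, which catalyse steps from the aldolase split to pyruvate, fell in 6 of 8 each. The GAPDH call in ABEmax with RNF2 ended without any 1 of the compared libraries (adjusted p up to 0.163) and with no filter (0.0514). So did the PKM call in miniABEmax-V82G with RNF2 in every leave-out (up to 0.125). In that comparison the ALDOA and TPI1 calls ended in most leave-outs (up to 0.138 and 0.172), and that of ALDOA with no filter (0.0503). The phosphoglycerate mutase PGAM1 fell in 5, PFKM, ENO1 and LDHB in 4 each and the kinase PGK1 in 1. In leave-outs, ENO1 calls ended for ABEmax and SpACE with HEKsite2 and Target-AID with RNF2 (adjusted p up to 0.297, 0.198 and 0.105). LDHB calls ended for the same comparisons (up to 0.0723, 0.311 and 0.126). PFKM calls ended for miniABEmax-V82G and Target-AID with RNF2 (up to 0.075 and 0.11). PGAM1 calls ended for ABEmax with HEKsite2 (up to 0.119) and miniABEmax-V82G with RNF2 (0.0501). The only PGK1 call, in Target-AID with HEKsite2, ended as well (0.0535). The only enzymes that rose were HK2, the hypoxia-inducible hexokinase, in 4 of 8, and PFKP, the platelet isoform of phosphofructokinase, in 3. Against GFP, however, HK2 and PFKP rose in 0 of 10 comparisons and each fell in 5. HK2 was at 62.6, 60.5 and 52.5 CPM in Target-AID with HEKsite2, against 39.4, 45.3 and 47.2 CPM in nCas9, with no overlap (0.42 ± 0.0754, adjusted p = 2.09e-05). The HK2 call in miniABEmax-V82G with RNF2 (0.23 ± 0.0773, adjusted p = 0.0427) ended with DESeq2 (adjusted p = 0.0507), with no filter (0.0609) and in 4 leave-outs (up to 0.236, without nCas9 replicate 3). The PFKP calls ended in 4 leave-outs for SpACE with RNF2 (adjusted p up to 0.112, without nCas9 replicate 1), in 2 for Target-AID with HEKsite2 (up to 0.157, without nCas9 replicate 1) and in 1 for Target-AID with RNF2 (0.0593, without its replicate 2). They also ended with no filter for Target-AID with HEKsite2 (0.0962) and in the compared groups only for Target-AID with RNF2 (0.0539). HK1, the constitutive hexokinase, moved by between -0.14 and 0.10 and was called in none. Reads of GAPDH, PGAM1, LDHA and PKM can be shared with 62, 13, 6 and 5 named pseudogenes, and exons of ALDOA, LDHB and GPI overlap those of AC093512.2, AC010197.2 and AC092073.1 on the same strand, so their counts depend on how the authors assigned such reads.

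The counts of falling enzymes with ABEmax and miniABEmax-V82G rested in part on single libraries. Counts of all genes called in these fits are not set beside them, so the changes are not shown to be particular to the enzymes. With ABEmax and HEKsite2, 3 enzymes fell without nCas9 replicate 1, 6 without nCas9 replicate 2 and 4 without ABEmax replicate 2, against 10 with all libraries. With miniABEmax-V82G and HEKsite2, 3 enzymes fell with all libraries, 1 without its replicate 3 or nCas9 replicate 1, and 6 without nCas9 replicate 3. With RNF2 the same editor had 7 falls with all libraries, 2 without its replicate 3, 3 without its replicate 1 or 2 or without nCas9 replicate 1, and 1 without nCas9 replicate 2. ABEmax with RNF2 had 7 falls with all libraries and 4 without nCas9 replicate 2. SpACE had 6 to 9 falls over the leave-outs with HEKsite2, and with RNF2 it had 1 fall without SpACE replicate 1 and 0 in each of the other 5. For Target-AID they ran from 12 to 12 with HEKsite2 and from 8 to 12 with RNF2, and without its replicate 3 the falls were 12 in either guide.

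**Figure D2:**
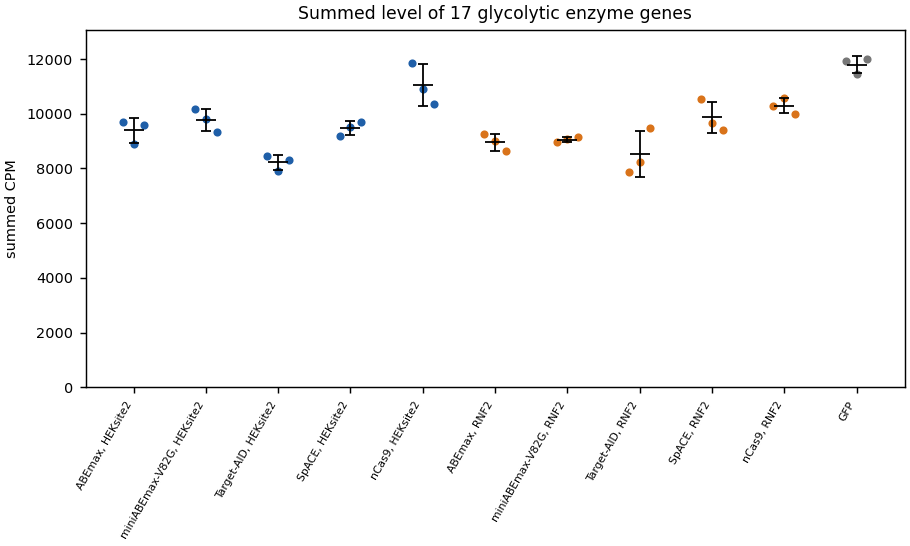
Summed level of the 17 enzyme genes (CPM, from 0) in each of the 33 libraries, by construct and guide. Points are libraries, bars are the group mean and SD (n = 3), blue is HEKsite2, orange is RNF2 and grey is GFP. Target-AID with HEKsite2, at 7923 to 8468 CPM, has the lowest mean, and GFP, at 11453 to 12004 CPM, the highest.

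The 3 transporters divided. SLC2A3, the high-affinity glucose transporter GLUT3, showed the largest falls of any called member. In SpACE with HEKsite2 it was at 3.33, 4.34 and 4.29 CPM, in Target-AID at 4.63, 3.01 and 4.96 CPM and in nCas9 at 11.2, 9.53 and 10.5 CPM. All libraries of both editors lay below all nCas9 libraries, and the log2 fold changes were -1.38 ± 0.172 (adjusted p = 1.35e-07) and -1.33 ± 0.169 (adjusted p = 4.01e-08). With RNF2, SpACE was at 3.63, 5.08 and 4.74 CPM, against 7.31, 7.48 and 6.79 CPM in nCas9 (-0.69 ± 0.179, adjusted p = 0.00669). SLC2A3 fell in 7 of 8, and in ABEmax with RNF2 it stood at -0.47 ± 0.177 (adjusted p = 0.0807). Without SpACE replicate 1 its call under RNF2 ended (-0.55, adjusted p = 0.0651).

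SLC2A1, the widespread transporter GLUT1, rose in 6 of 8 and in neither ABEmax comparison. It was at 44.6, 39.2 and 40.4 CPM in Target-AID with HEKsite2, against 28.9, 27.9 and 29.8 CPM in nCas9, with no overlap (0.52 ± 0.0872, adjusted p = 6.6e-06). In ABEmax with HEKsite2 it was at 30.1, 27.1 and 31.9 CPM and overlapped nCas9 (0.04 ± 0.0943, adjusted p = 0.821). Its calls with miniABEmax-V82G and SpACE lay close to the threshold and ended without single libraries, for example at 0.26 (adjusted p = 0.11) without miniABEmax-V82G replicate 1 under RNF2.

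PFKFB3, which makes the activator of phosphofructokinase and carries an E-box in the window above but not in its other window, rose in 7 of 8. In SpACE with HEKsite2 it was at 65.2, 57.9 and 61.4 CPM, against 42.9, 47.8 and 50.7 CPM in nCas9, and in miniABEmax-V82G with RNF2 at 61.8, 61.3 and 65.7 CPM, against 50.7, 46.4 and 49.96 CPM. Neither pair of groups overlapped, with log2 fold changes of 0.38 ± 0.0733 (adjusted p = 0.000187) and 0.36 ± 0.0734 (adjusted p = 0.000964). ABEmax with HEKsite2 missed the threshold (0.18 ± 0.0764, adjusted p = 0.105). The calls in ABEmax and in Target-AID with RNF2 ended in some leave-outs, with adjusted p = 0.156 and 0.0913 without nCas9 replicate 2. The Target-AID call also ended in the compared groups only (0.0781), and that in miniABEmax-V82G with HEKsite2 ended without nCas9 replicate 1 (0.0524). PFKFB4, its paralog, and PDK1, which shuts pyruvate out of the mitochondrial acetyl-CoA route, were called in none of the 8.

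P4HA2, a subunit of the prolyl hydroxylase that matures collagen, was the only member that rose in all 8, as 1.16% of all tested genes did. With HEKsite2 it was at 37.1, 33.8 and 42.4 CPM in ABEmax, 39.6, 39.3 and 39.6 in miniABEmax-V82G, 53.6, 48.7 and 48.6 in Target-AID and 40.1, 41.5 and 41.2 in SpACE, against 29.5, 21.7 and 28.2 CPM in nCas9. With RNF2 it was at 37.5, 31.0 and 32.1 CPM in ABEmax, 37.9, 34.5 and 36.6 in miniABEmax-V82G, 50.9, 49.2 and 44.3 in Target-AID and 46.6, 40.3 and 35.8 in SpACE, against 29.2, 25.3 and 24.5 CPM in nCas9. Every editor library lay above every nCas9 library of its guide, and Target-AID was the highest of the 4 editors in both guides. The log2 fold changes were 0.51 ± 0.104, 0.57 ± 0.1, 0.92 ± 0.0972 and 0.62 ± 0.0998 with HEKsite2 and 0.35 ± 0.103, 0.46 ± 0.102, 0.87 ± 0.0973 and 0.63 ± 0.0995 with RNF2, in the order ABEmax, miniABEmax-V82G, Target-AID and SpACE. The adjusted p-values ran to 0.0238, that of ABEmax with RNF2. That call alone ended in leave-outs, at 0.26 (adjusted p = 0.161) without ABEmax replicate 1, 0.32 (0.105) without nCas9 replicate 2 and 0.30 (0.1) without nCas9 replicate 3. Its exons overlap those of P4HA2-AS1 on the other strand over 548 bases, and the strand setting of the counting is not given in the sources used here. Its promoter window held no ACGTG.

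P4HA1, the related subunit, rose in 3 of 8. In SpACE with RNF2 it was at 78.6, 79.3 and 73.3 CPM, against 64.0, 61.6 and 54.7 CPM in nCas9, without overlap (0.36 ± 0.07, adjusted p = 0.000342). It rose with SpACE and HEKsite2 (0.23 ± 0.0696, adjusted p = 0.0141) and with Target-AID and RNF2 (0.29 ± 0.07, adjusted p = 0.000998). Without SpACE replicate 3 the HEKsite2 call ended (0.22, adjusted p = 0.0529).

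NDRG1, a stress-induced gene that responds to hypoxia and to loss of iron, rose with Target-AID and in no other comparison with nCas9. With HEKsite2 it was at 84.4, 78.1 and 72.6 CPM in Target-AID, against 51.7, 53.1 and 51.3 CPM in nCas9, and with RNF2 at 74.4, 79.3 and 69.5 CPM, against 52.4, 49.9 and 47.5 CPM. The groups were far apart in both guides (0.59 ± 0.0738, adjusted p = 2.29e-08, and 0.57 ± 0.0741, adjusted p = 7.13e-08). Without replicate 3 of Target-AID the changes were 0.64 and 0.62. With the other editors NDRG1 differed from nCas9 by between -0.08 and 0.15.

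ADM, the gene of the vasodilator peptide adrenomedullin, rose only with miniABEmax-V82G and HEKsite2, at 17.1, 17.4 and 20.6 CPM against 13.95, 13.2 and 14.4 CPM in nCas9 (0.40 ± 0.112, adjusted p = 0.0152). That call ended without miniABEmax-V82G replicate 3 (0.32, adjusted p = 0.122) and without nCas9 replicate 2 (0.37, adjusted p = 0.0669). EGLN1, the main oxygen-sensing prolyl hydroxylase, rose in 4 of 8, with Target-AID and SpACE under either guide (0.22 to 0.38), and its SpACE calls ended in some leave-outs (adjusted p = 0.132 without nCas9 replicate 3 under RNF2, 0.053 without nCas9 replicate 1 under HEKsite2). KDM3A, a histone demethylase, rose in 1, miniABEmax-V82G with RNF2 (0.26 ± 0.0577, adjusted p = 0.00194). BNIP3 and BNIP3L, receptors that mark mitochondria for autophagy, fell in 3 and 4 of 8, and BNIP3 shares sequence with 39 named pseudogenes. The BNIP3 call in ABEmax with HEKsite2 ended in 5 of 6 leave-outs (adjusted p up to 0.246, without ABEmax replicate 1). Its call in Target-AID with RNF2 ended in 3 (up to 0.29, without Target-AID replicate 1) and in the compared groups only (0.122). The BNIP3L call in miniABEmax-V82G with HEKsite2 ended in all 6 leave-outs (adjusted p 0.0739 to 0.168), with DESeq2 (0.0578) and with no filter (0.0713). Its calls in ABEmax and SpACE with HEKsite2 ended in 3 leave-outs each (up to 0.0845, without ABEmax replicate 2, and 0.192, without SpACE replicate 1). EGLN3 was called in none.

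**Figure D3:**
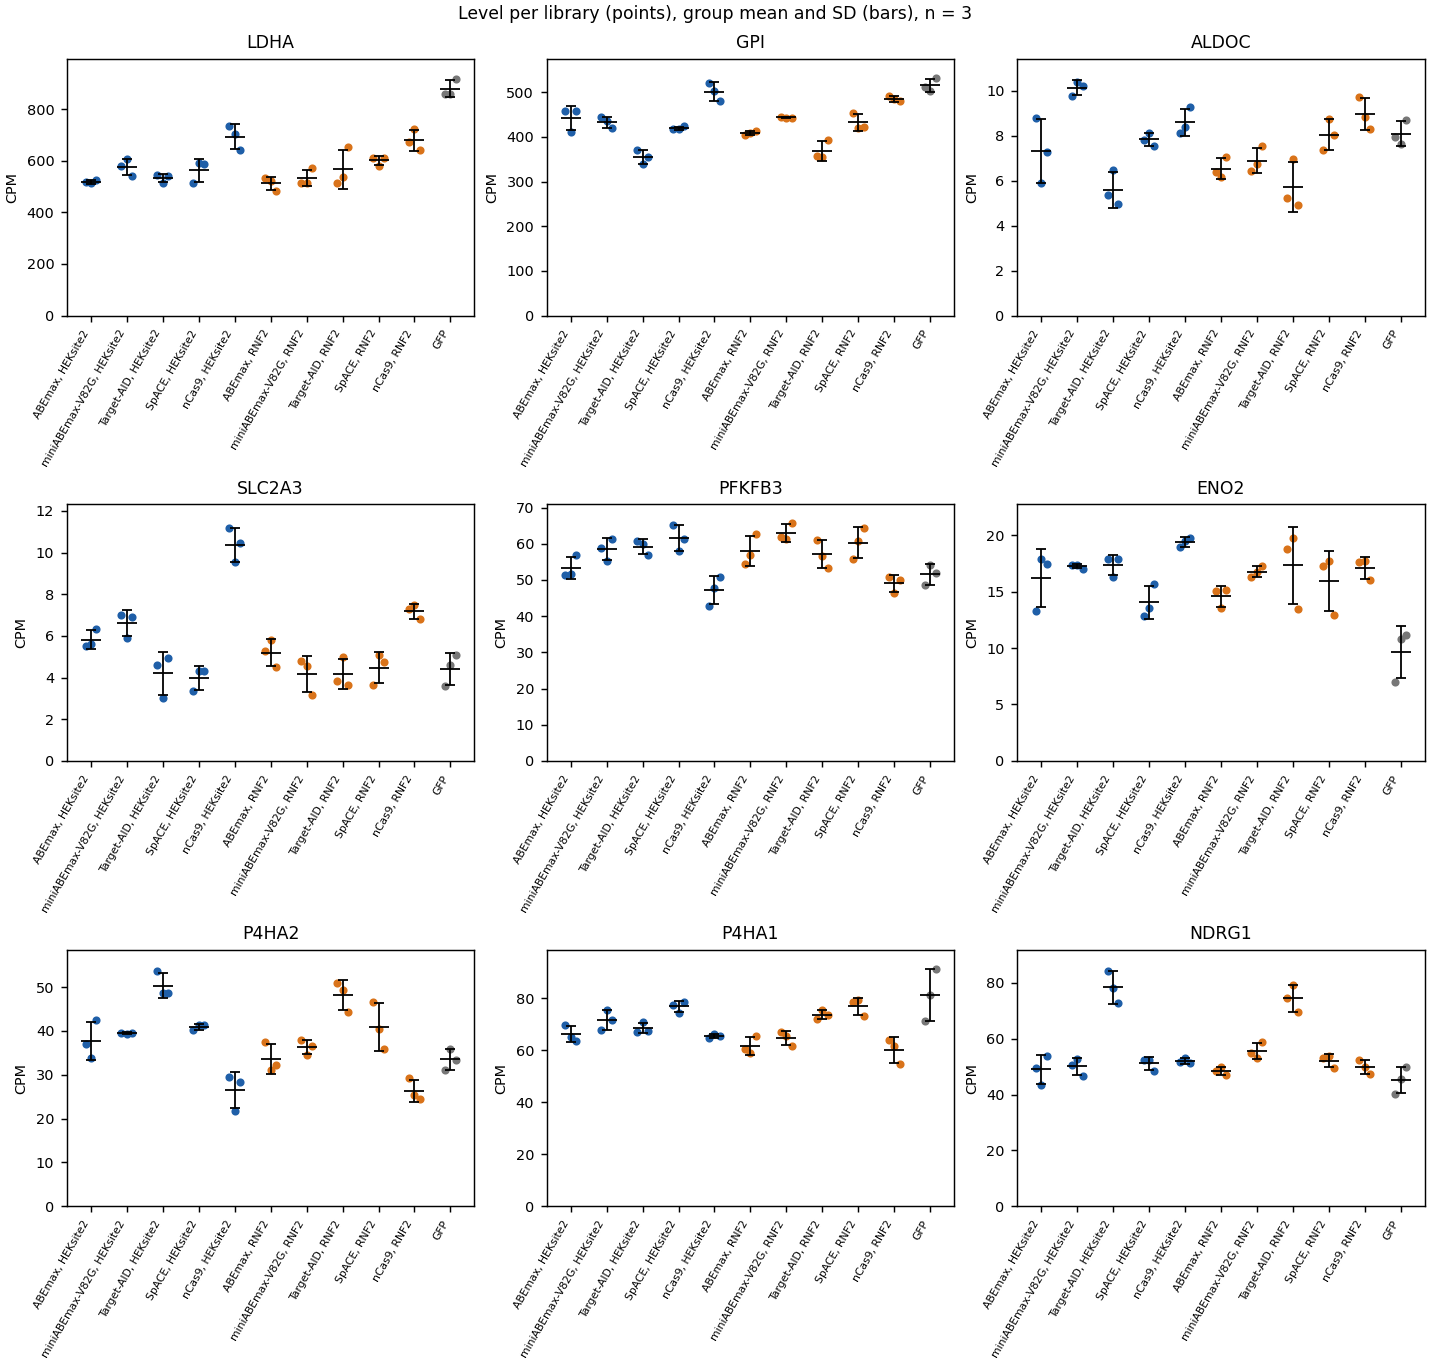
Level (CPM, axes from 0) of 9 members in each library, by construct and guide. Points are libraries, bars are the group mean and SD (n = 3), blue is HEKsite2, orange is RNF2 and grey is GFP. SLC2A3 is highest in nCas9, at 6.79 to 11.2 CPM, P4HA2 is lower in nCas9 than in every editor of the same guide, and NDRG1 is highest in Target-AID, at 69.5 to 84.4 CPM.

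The genes of the HIF machinery and further HIF-induced genes were examined as lists. Of 13 tested genes for HIF subunits and their turnover, 2, 0, 3 and 3 rose and 3, 0, 3 and 2 fell in ABEmax, miniABEmax-V82G, Target-AID and SpACE with HEKsite2, and 1, 2, 4 and 2 rose and 0, 1, 4 and 0 fell with RNF2. The shares called were 38.5%, 0%, 46.2% and 38.5% with HEKsite2, against 15.9%, 10.3%, 40.6% and 21% of all genes, and 7.69%, 23.1%, 61.5% and 15.4% with RNF2, against 11.2%, 12.6%, 35.2% and 14.7%. HIF1A, the oxygen-regulated subunit, was at 85.8, 81.7 and 84.4 CPM in SpACE with RNF2, against 66.2, 63.6 and 63.4 CPM in nCas9, without overlap (0.38 ± 0.0607, adjusted p = 1.59e-05). It also rose with SpACE and HEKsite2 (0.23 ± 0.0595, adjusted p = 0.00495) and with Target-AID and RNF2 (0.25 ± 0.0609, adjusted p = 0.00153). The nCas9 reference for HIF1A was itself lower with RNF2 than with HEKsite2 (-0.24 ± 0.0618, adjusted p = 0.0249). Against GFP, HIF1A was called lower in every editor group, from -0.22 in SpACE with HEKsite2 to -0.68 in ABEmax with RNF2. ARNT, its partner, rose with Target-AID and RNF2 (0.33 ± 0.0721, adjusted p = 0.000457) and in no other of the 8. ARNT2, the partner best known from neurons, was at 35.8, 37.9 and 31.0 CPM in Target-AID with HEKsite2, against 18.3, 14.4 and 19.8 CPM in nCas9 (0.99 ± 0.11, adjusted p = 1.7e-09), and rose in 6 of 8. EPAS1, which encodes HIF-2alpha, was called in none, and VHL fell with Target-AID and RNF2 (-0.17 ± 0.0514, adjusted p = 0.0108). HIF proteins are set mainly by protein turnover, which these counts do not measure.

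Of 24 tested further HIF-induced genes, 5, 3, 8 and 4 rose and 3, 2, 5 and 2 fell with HEKsite2, and 3, 4, 9 and 5 rose and 1, 0, 3 and 2 fell with RNF2, in the same order of editors. The shares called were 33.3%, 20.8%, 54.2% and 25% with HEKsite2 and 16.7%, 16.7%, 50% and 29.2% with RNF2, set against those same shares of all genes. DDIT4, an inhibitor of mTORC1 that hypoxia and several other stresses induce, rose in all 8, as 1.16% of all tested genes did. It was at 260.2, 260.7 and 276 CPM in Target-AID with RNF2, against 98.7, 104.5 and 106.5 CPM in nCas9 (1.36 ± 0.0687, adjusted p = 9.16e-20), and at 279, 238 and 251 CPM in Target-AID with HEKsite2, against 106.1, 106.4 and 110.3 CPM (1.25 ± 0.0686, adjusted p = 1.61e-18). Its smallest rise was with miniABEmax-V82G and RNF2 (0.23 ± 0.0712, adjusted p = 0.031). Of 22 tested further glycolysis and pyruvate genes, 0, 0, 2 and 0 rose and 7, 2, 11 and 6 fell with HEKsite2, and 0, 1, 1 and 1 rose and 1, 2, 7 and 1 fell with RNF2. The shares called were 31.8%, 9.09%, 59.1% and 27.3% with HEKsite2 and 4.55%, 13.6%, 36.4% and 9.09% with RNF2, and those of miniABEmax-V82G with HEKsite2 and of ABEmax and SpACE with RNF2 lie below the shares of all genes. Among them ENO3, the muscle enolase, had its largest fall in Target-AID with RNF2, to 1.21 ± 0.131 CPM against 3.26 ± 1.56 CPM in nCas9 (SD, n = 3 each, with a log2 fold change of -1.41 ± 0.323, adjusted p = 0.000655). In GFP it was lower still, at 0.866 ± 0.179 CPM. MLXIPL, a glucose-responsive transcription factor gene, fell in SpACE with HEKsite2, at 1.82 ± 0.784 CPM against 3.55 ± 0.16 CPM in nCas9 (SD, n = 3 each, with a log2 fold change of -0.95 ± 0.311, adjusted p = 0.0241 in edgeR). Its GFP level was 1.89 ± 0.177 CPM, close to that of SpACE.

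**Figure D4:**
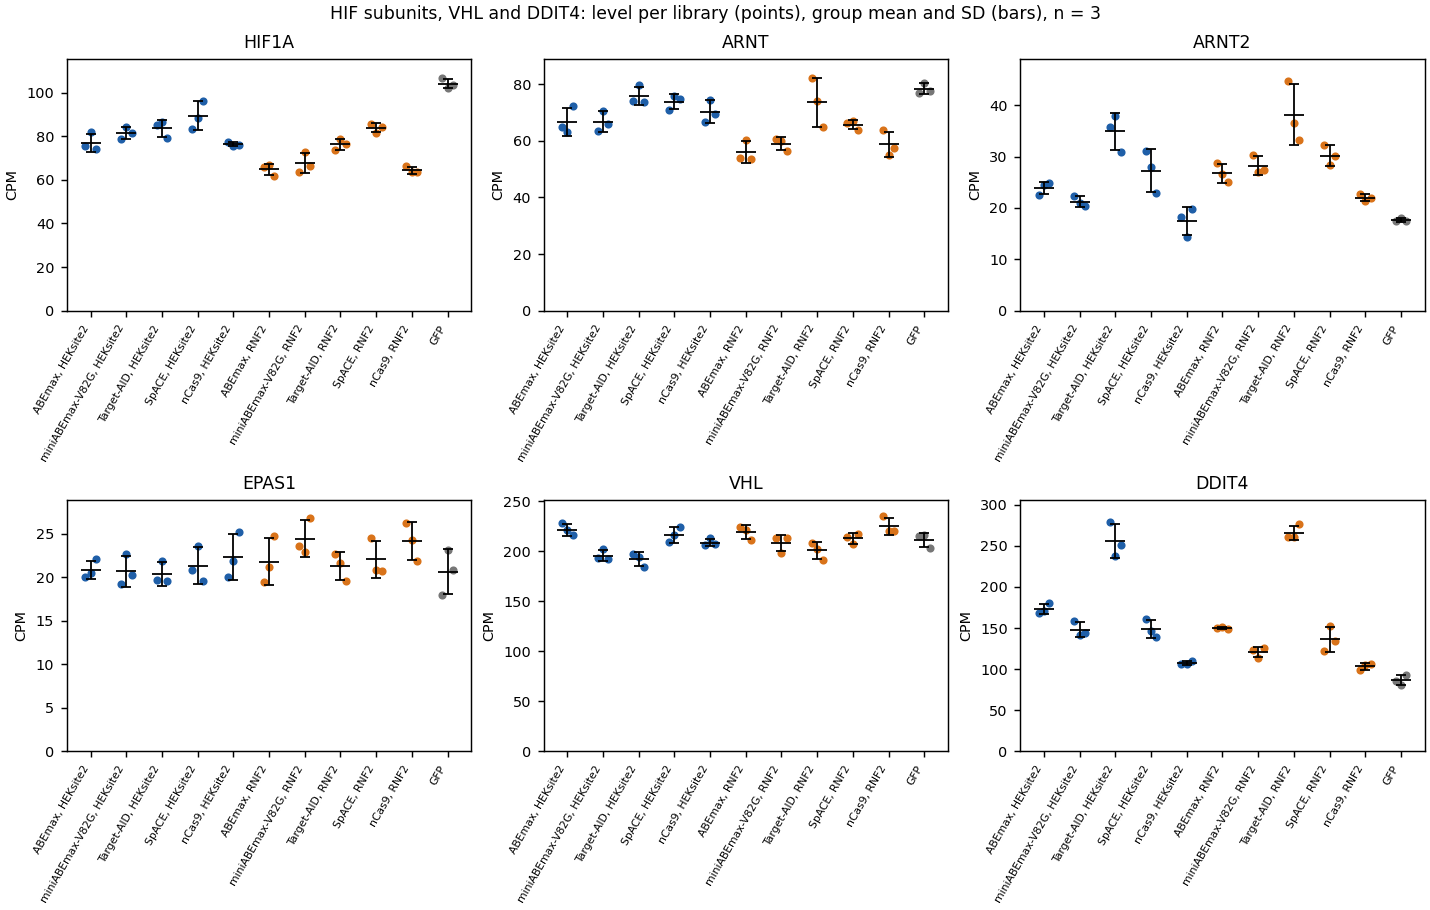
Level (CPM, axes from 0) of the HIF subunit genes HIF1A, ARNT, ARNT2 and EPAS1, of VHL and of DDIT4 in each library, by construct and guide. Points are libraries, bars are the group mean and SD (n = 3), blue is HEKsite2, orange is RNF2 and grey is GFP. HIF1A is highest in GFP, at 102 to 107 CPM, and DDIT4 is highest in Target-AID, at 238 to 279 CPM.

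Whether the difference from nCas9 depended on the guide was tested as an interaction for each editor. It was called for 0 members with ABEmax, miniABEmax-V82G, Target-AID and SpACE, with 0, 2, 2 and 2 members at an unadjusted p under 0.05 in edgeR, and DESeq2 also called 0. The share of all tested genes called was 0%, 0.0137%, 0.164% and 0.0274%. The nCas9 groups themselves differed in 1 member, against 2.07% of all genes (0.602% higher and 1.46% lower). PDK1 was at 28.2, 35.4 and 33.3 CPM with RNF2, against 40.99, 43.75 and 40.9 CPM with HEKsite2 (-0.38 ± 0.103, adjusted p = 0.0407). That call ended without any 1 of the nCas9 libraries other than RNF2 replicate 2.

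The 2 controls were then set against each other. In nCas9 against GFP, 5 members rose and 9 fell with HEKsite2, against a background of 38.4% (19.6% higher and 18.8% lower). With RNF2, 4 rose and 14 fell, against 41.5% of all genes (21% higher and 20.5% lower). GFP was given without a guide and nCas9 with one, so the nickase and the guide cannot be told apart here. SLC2A3 was at 11.2, 9.53 and 10.5 CPM in nCas9 with HEKsite2, against 3.59, 4.61 and 5.08 CPM in GFP (1.24 ± 0.165, adjusted p = 1.35e-07), and rose with RNF2 as well (0.71 ± 0.176, adjusted p = 0.00122). ENO2 was at 18.9, 19.5 and 19.8 CPM in nCas9 with HEKsite2, against 6.97, 10.8 and 11.2 CPM in GFP (1.01 ± 0.14, adjusted p = 2.66e-07), and rose with RNF2 too (0.83 ± 0.142, adjusted p = 8.98e-06). In neither gene did nCas9 and GFP libraries overlap. HIF1A fell to 77.2, 75.6 and 76.1 CPM in nCas9 with HEKsite2, against 106.6, 102.3 and 103.5 CPM in GFP (-0.45 ± 0.0585, adjusted p = 8.41e-08), and the change with RNF2 was -0.69 ± 0.0593 (adjusted p = 4.37e-12). P4HA2 also fell, with log2 fold changes of -0.33 ± 0.101 and -0.34 ± 0.101 (adjusted p = 0.00818 and 0.00546), so its level in nCas9 is below both the editors and GFP. Its HEKsite2 call ended without GFP replicate 2 (adjusted p = 0.057) and without nCas9 replicate 2 (adjusted p = 0.111).

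Against GFP, the editors showed mostly falls. With HEKsite2, 4 rose and 17 fell in ABEmax, where 46.8% of all genes were called (23.5% higher and 23.2% lower). In miniABEmax-V82G 8 rose and 14 fell, against 39.8% (20% higher and 19.8% lower), in Target-AID 7 and 16, against 46.4% (24.6% and 21.8%), and in SpACE 5 and 13, against 36.6% (18.5% and 18.2%). With RNF2, 4 rose and 20 fell in ABEmax, against 49.6% of all genes (25.2% higher and 24.4% lower). In miniABEmax-V82G 6 rose and 18 fell, against 47% (23.5% higher and 23.5% lower), in Target-AID 5 and 15, against 46.2% (24.6% and 21.5%), and in SpACE 7 and 10, against 37.9% (18.9% and 19%). All 10 comparisons share the 3 GFP libraries. Over the 10 (8 editor groups and 2 nCas9 groups), LDHA, GAPDH, PFKL and BNIP3 fell in 10, and ENO2 and KDM3A rose in 10. The share of all genes called in 1 direction in all 10 was not counted. LDHA was at 654 CPM or less in every editor library, against 861, 859.7 and 917 CPM in GFP, with changes of -0.55 to -0.78 in the editors. ADM rose in 9, and stood at 0.27 ± 0.122 (adjusted p = 0.0671) in Target-AID with RNF2. P4HA2 rose in 5 of the 8 editor groups, by 0.52 to 0.59 in Target-AID and by 0.24 to 0.29 in miniABEmax-V82G with HEKsite2 and in SpACE. HK2, PFKP, EGLN1 and P4HA1, which rose in some comparisons with nCas9, rose in 0 of the 10 and fell in 5, 5, 6 and 7. Each of these was called lower in both nCas9 groups than in GFP. PFKFB3 rose in 6 of the 10, NDRG1 in 5 and SLC2A1 in 3, and SLC2A1 fell in 1. SLC2A3 in Target-AID and SpACE stood near its GFP level, at -0.14 to 0.02, with adjusted p from 0.605 to 0.953. SLC16A3 rose in ABEmax with HEKsite2 (1.83 ± 0.503, adjusted p = 0.00264), on 26 counts against 10.

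The last comparison set the dual editor against miniABEmax-V82G and Target-AID, which rewrite a single kind of base. SpACE and miniABEmax-V82G differed in 1 member with HEKsite2, where 0.739% of all genes were called (0.438% higher and 0.301% lower), and in 4 with RNF2, where 5.85% were (3.08% higher and 2.77% lower). The first was SLC2A3, at 3.33, 4.34 and 4.29 CPM in SpACE against 7.02, 5.89 and 6.90 CPM in miniABEmax-V82G (-0.72 ± 0.182, adjusted p = 0.0433), and this call ended without any 1 of the 6 libraries. With RNF2, PFKP, EGLN1 and P4HA1 rose (0.28, 0.21 and 0.25) and KDM3A fell (-0.22 ± 0.0571, adjusted p = 0.0169). The count was 0 without miniABEmax-V82G replicate 1 or SpACE replicate 1 or 2, 1 without miniABEmax-V82G replicate 3 and 2 without its replicate 2. Shares of all genes called in those fits are not given.

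SpACE and Target-AID differed in more members, with 7 rising and 2 falling with HEKsite2, against 18.5% of all genes (8.21% higher and 10.3% lower), and 7 rising and 3 falling with RNF2, against 15.9% (6.61% higher and 9.32% lower). Of the 7 rises with HEKsite2, 5 were the enzymes GPI, ALDOA, ALDOC, TPI1 and GAPDH, and all 7 with RNF2 were enzymes, these 5 with PGAM1 and PKM. GPI was at 417, 417.4 and 423.5 CPM in SpACE against 371, 339.8 and 354 CPM in Target-AID with HEKsite2 (0.24 ± 0.0533, adjusted p = 0.00103), and GAPDH was higher by 0.33 ± 0.0649 (adjusted p = 0.000212). NDRG1 was at 52.6, 52.5 and 48.6 CPM in SpACE, against 84.4, 78.1 and 72.6 CPM in Target-AID (-0.62 ± 0.0729, adjusted p = 1.8e-08), and with RNF2 it differed by -0.51 ± 0.073 (adjusted p = 1.18e-06). P4HA2 fell relative to Target-AID with HEKsite2 (-0.30 ± 0.0903, adjusted p = 0.0169) and stood at -0.23 ± 0.0906 with RNF2 (adjusted p = 0.0755). DDIT4 fell in SpACE relative to Target-AID, with log2 fold changes of -0.78 ± 0.0665 and -0.96 ± 0.0668 in the 2 guides (adjusted p = 2.13e-12 and 5.16e-15). Without Target-AID replicate 3 the counts were 6 and 2 with HEKsite2 and 11 and 4 with RNF2, and P4HA2 passed with RNF2 as well (-0.29, adjusted p = 0.0247), while without Target-AID replicate 1 the RNF2 count was 6 in all. For these fits too, the share of all genes called is not given.

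The counts against nCas9 moved by more than 1.5 times in these leave-outs. Here too, counts of all genes called in the same fits are not set beside them. With ABEmax and HEKsite2, 5 members were called without nCas9 replicate 1, 9 without nCas9 replicate 2 and 7 without ABEmax replicate 2, against 14. With miniABEmax-V82G and HEKsite2, 4, 5 and 4 were called without nCas9 replicate 1, nCas9 replicate 2 and miniABEmax-V82G replicate 3, against 9. With RNF2, ABEmax had 4 without nCas9 replicate 2, against 9. With RNF2, miniABEmax-V82G had 8 without nCas9 replicate 1, 5 without nCas9 replicate 2, and 7, 8 and 6 without its own replicates 1, 2 and 3, against 13. SpACE with RNF2 had 5 without SpACE replicate 1, without SpACE replicate 2 or without nCas9 replicate 3, against 8. No such change occurred for Target-AID against nCas9, whose counts without replicate 3 were 7 rises and 15 falls with HEKsite2 and 8 rises and 14 falls with RNF2.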

How the data were processed

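RNA-seq counts per gene, as deposited by the authors, were read for 33 libraries in 11 groups of 3. All columns were matched to samples by name, those with SpACE.UGI to the SpACE samples. The submitters' processing notes name STAR, GATK 3.8.1, Picard 2.7 and GRCh38. No source used here gives the counting tool, its annotation or its strand setting. Counts were scaled by TMM and filtered with filterByExpr (14613 of 26475 genes tested), and 1 model over all 11 groups, with no covariate and 22 residual degrees of freedom, was tested with edgeR 4.0.16 (quasi-likelihood, Benjamini-Hochberg, threshold 0.05). The procedure was tested on simulated data, with 50 genes changed at each of 4 sizes in ABEmax with HEKsite2. It recovered 4% of changes of 1.15-fold, 44% of 1.3-fold, 64% of 1.5-fold and 90% of 2-fold. Of 14156 unchanged genes, 3 were called. All other genes were left unchanged there, whereas 15.9% of all tested genes were called in the real comparison of ABEmax with nCas9 under HEKsite2. The changed genes were picked at random above a minimum mean count, so these shares do not measure recovery for the members. A member without a call may still have changed by a small amount. CPM is a count scaled to library size by TMM. Levels per kb used GENCODE 29 exons, and promoters came from RefSeq. Libraries held 6790209 to 11200406 counts, and intervals from 3 counts cover counting error only.

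Alternatives were DESeq2 1.42.0, RLE scaling, no filter on low counts, a replicate block, a fit to the compared groups only, and leaving out each library. R 4.3.3, Python 3.11.15, pandas 2.3.3 and matplotlib 3.10.9 were used. Values were given in full for members called in 1 direction in all 8 editor comparisons with nCas9, for the 2 largest rises and falls in each, and for members with a called guide interaction or a change of at least 1 (log2) in nCas9 against GFP. Members outside this rule that are given by library or test (HK2, SLC2A1, PDK1, EGLN1, KDM3A, GAPDH and SLC16A3) were picked after their values were seen. Members and lists were chosen with earlier results of these data known.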

Additional observations from a re-analysis of the deposited data

Results flagged for a closer look

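ALDOC in miniABEmax-V82G moved in opposite directions against nCas9 under the 2 guides in every library. With HEKsite2 it averaged 10.1 ± 0.34 CPM in miniABEmax-V82G and 8.61 ± 0.609 CPM in nCas9, and with RNF2 6.90 ± 0.57 CPM in miniABEmax-V82G and 8.98 ± 0.715 CPM in nCas9 (SD, n = 3 each). Neither difference passed the threshold in edgeR (0.23 ± 0.133, adjusted p = 0.283, and -0.38 ± 0.144, adjusted p = 0.0773). The difference between the guides was -0.61 ± 0.196 on the log2 scale and did not pass after adjustment over all genes (adjusted p = 0.706).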

How the results depend on the processing

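The counts of called members moved by more than 1.5 times under these settings. Counts of all genes called under each setting are not set beside them, so the changes are not shown to be particular to the members. SpACE against miniABEmax-V82G with HEKsite2 had 0 called with DESeq2 and 0 in a fit to the compared groups only, against 1; with RNF2 it had 7 in the compared groups only, against 4. SpACE against Target-AID with RNF2 had 3 in the compared groups only, against 10. The cause was not tested. Leaving out 1 library at a time gave 5 to 13 called for ABEmax, 4 to 11 for miniABEmax-V82G, 21 to 22 for Target-AID and 12 to 16 for SpACE against nCas9 with HEKsite2, and 4 to 7, 5 to 10, 16 to 22 and 5 to 7 with RNF2. It gave 0 to 0 and 0 to 3 for SpACE against miniABEmax-V82G with HEKsite2 and RNF2, 7 to 8 and 6 to 15 for SpACE against Target-AID, and 0 to 1 between the nCas9 guides. Of 10220 values of single members under the alternatives, 9768 kept their call or lack of one, 363 lost the call and 89 gained it. No called value changed sign, and 348 uncalled values did.

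With the replicate block, 15, 13, 23 and 18 members were called with HEKsite2 and 9, 13, 21 and 8 with RNF2 (ABEmax, miniABEmax-V82G, Target-AID and SpACE against nCas9). The share of all genes called with the block is not given. In no comparison did all 3 same-numbered pairs correlate above 0.1 in their deviations from the group means, so the numbers were not taken as pairs. As a hint from the data that they may nevertheless mark something shared, 24 of 33 libraries were on average closest to libraries of their own number in other groups. At this depth CA9 and ANKRD37 could not be tested, and SLC16A3 had standard errors of 0.46 to 0.65 against nCas9.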

Other observations

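Some genes that regulate glucose use or respond to hypoxia, named here after their values were seen, also differed between editors and nCas9. MYC, a transcription factor that activates glycolytic genes, rose in 5 of the 8 comparisons and averaged 66.2 ± 8.67 CPM in Target-AID with HEKsite2, against 37.7 ± 4.93 CPM in nCas9 (SD, n = 3 each; 0.82 ± 0.105, adjusted p = 5.12e-08 in edgeR). MYC was also lower in nCas9 than in GFP, at 63.1 ± 6.97 CPM in GFP (-0.75 ± 0.105, adjusted p = 3.76e-07). Of the 6 genes listed for MYC and the glucose-sensing MondoA pathway, 0, 1, 2 and 2 rose and 0, 0, 1 and 3 fell with HEKsite2, and 0, 0, 1 and 1 rose and 0, 1, 1 and 2 fell with RNF2, in ABEmax, miniABEmax-V82G, Target-AID and SpACE against nCas9. The shares called were 0%, 16.7%, 50% and 83.3%, against 15.9%, 10.3%, 40.6% and 21% of all genes with HEKsite2, and 0%, 16.7%, 33.3% and 50%, against 11.2%, 12.6%, 35.2% and 14.7% with RNF2. TXNIP, which restrains glucose uptake and is induced by the glucose sensor MondoA, fell in 5 of 8 and averaged 69.1 ± 2.78 CPM in Target-AID with HEKsite2, against 128 ± 3.76 CPM in nCas9 (-0.90 ± 0.0706, adjusted p = 1.84e-13).

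VEGFA, the angiogenic growth factor, rose in 6 of the 8 comparisons with nCas9, the exceptions being SpACE with either guide (0.18 ± 0.0724 and 0.12 ± 0.0721, adjusted p = 0.0788 and 0.262). Set directly against Target-AID, VEGFA fell in SpACE with HEKsite2 (-0.37 ± 0.0679, adjusted p = 7.85e-05 in edgeR) and with RNF2 (-0.28 ± 0.0687, adjusted p = 0.00405). Against miniABEmax-V82G the differences of -0.19 ± 0.069 and -0.19 ± 0.0704 did not pass (adjusted p = 0.166 and 0.104), and SpACE was not compared with ABEmax.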
